A study of Rattus norvegicus with 9 samples.

Results

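The A-tailed family is a set of 3 small RNA entries of the rat hippocampal CA1 region that share their first 15 bases and end in a run of A. Its members are novel_11128_x300, novel_10364_x329 and novel_11554_x284, out of 5794 entries in the normalised piRNA table, together with any entry whose first 16 bases equal those of novel_11128_x300. That second condition added no further entry. The 3 names were chosen by their tag counts, which were lower in both treated groups than in Sham, so their differences from Sham are given as a description, without a test.

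Small RNA was sequenced from CA1 of male Wistar rats aged 7 to 8 weeks, in 3 libraries each of Sham, tGCI26h (tGCI stands for transient global cerebral ischemia, and the label carries the hour 26) and HPC0h (whose label carries the hour 0 and leaves HPC unexplained). The labels give no other allele, agent or treatment, and do not say whether the rats of the HPC0h group also had ischemia. Column headings were matched to groups by their letters, and those beginning with P were taken as HPC0h, since the other 6 match the other groups. In 7 columns the heading holds 3 numbers, which may mean pooled animals, although no label says so; these numbered libraries are given letters from a within their group, and the remaining 2 are Sham u and tGCI26h u. Values of a group follow the order a, b, u in Sham and tGCI26h, and a, b, c in HPC0h. The p-values therefore measure the spread between these libraries, which may be technical.

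PIWI-interacting RNAs (piRNAs) are small RNAs that guide PIWI proteins, best known for silencing transposons in the germline. Their 3′ ends are protected by methylation in animals, whereas many other small RNAs can receive added A or U at the 3′ end from terminal nucleotidyltransferases, and a run of A can also be encoded in the genome. The deposited table does not say which applies to any entry.

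The members are printed because the whole family differs in nothing but the length of its run of A, shown in capitals.
novel_11128_x300: uaaugguucguuuguAAAAAAAAAAAA
novel_10364_x329: uaaugguucguuuguAAAAAAAAAAAAA
novel_11554_x284: uaaugguucguuuguAAAAAAAAAAAAAA
They are 27, 28 and 29 nt long, with 12, 13 and 14 A after the shared 15 bases. Those 15 bases hold 8 U and 5 G or C. All 3 begin with U, as do 2628 of all 5794 entries, and have G at position 10. No other entry held the 15 bases at any position, and no entry with fewer than 12 or more than 14 A after them was listed. The nearest other entries shared only the first 8 bases. There were 5 of these; novel_10976_x305 held 105, 43 and 27 tags in the Sham libraries, 72, 143 and 0 in tGCI26h and 114, 183 and 63 in HPC0h, and the other 4 held at most 2 tags in any library. The 15 bases, searched on both strands, were in none of the 1143 microRNA sequences and none of the 33469 promoter sequences of RefSeq (GRCr8), which says only that those windows lack these letters.

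Values are tag counts that the authors normalised and rounded. Library totals of 961372 to 992081 reflect that scaling, so the sequencing depth is unknown. Entries above 0 numbered 2558 to 2936 in each of the 7 numbered libraries, against 1201 in Sham u and 708 in tGCI26h u. Blank cells were read as 0. As a check of the tissue, 17 entries matching miR-128-3p, a microRNA abundant in brain, summed to 53838 to 110281 tags per library. Among markers of other cells, miR-451-5p of erythrocytes summed to 46 to 72 tags in the numbered libraries, 864 in Sham u and 1626 in tGCI26h u. Endothelial markers (2 of 2 above 0) summed to 4156 to 10069 in Sham, 3636 to 9016 in tGCI26h and 7955 to 9522 in HPC0h. Mural cell markers (2 of 2) summed to 18476 to 21568, 17073 to 20828 and 18178 to 20162, and oligodendrocyte markers (2 of 2) to 2 to 363, 2 to 1265 and 2 to 5, in the same order. The 363 and 1265 were those of Sham u and tGCI26h u, and every numbered library held 2 to 5. The myeloid list and miR-122-5p of liver held at most 1 tag in any library. These sums can count a tag in several entries. Over 9 libraries both treated groups overlapped or touched the range of Sham in each list. Over the numbered libraries this held for HPC0h only. There tGCI26h lay below Sham a and b for miR-128-3p (91453 and 91196 against 93544 and 105099) and miR-451-5p. The same was seen for endothelial (9016 and 8230 against 9293 and 10069) and mural cell markers (17073 and 17892 against 19391 and 18476). It was not seen for the oligodendrocyte, myeloid and liver lists. The miR-128-3p sum was also lower in every tGCI26h library than in any HPC0h library. Such separations were common: over the numbered libraries 7.71% of all tested entries were lower in tGCI26h than Sham with no overlap. Over 9 libraries 5.1% were higher in HPC0h than tGCI26h in the same way. None of the marker sums was tested. In bulk tissue, fewer cells of a type and less RNA per cell cannot be told apart.

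novel_11128_x300, the shortest member, held 223, 240 and 207 tags in the Sham libraries. The tGCI26h libraries held 85 and 66 tags and, in tGCI26h u, a blank. Those of HPC0h held 59, 77 and 82 tags. Every treated library lay below every Sham library, and the 5 numbered treated libraries lay close together.

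novel_10364_x329, the middle member, held 224, 242 and 207 tags in Sham, 88 and 69 in the numbered tGCI26h libraries, and 60, 78 and 83 in HPC0h. novel_11554_x284, the longest, held 229, 248 and 207 tags in Sham, 95 and 78 in the same tGCI26h libraries, and 63, 87 and 87 in HPC0h. Both were blank in tGCI26h u. The order of the libraries was nearly that of the shortest member, and again no treated library reached the lowest Sham value.

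**Figure D1:**
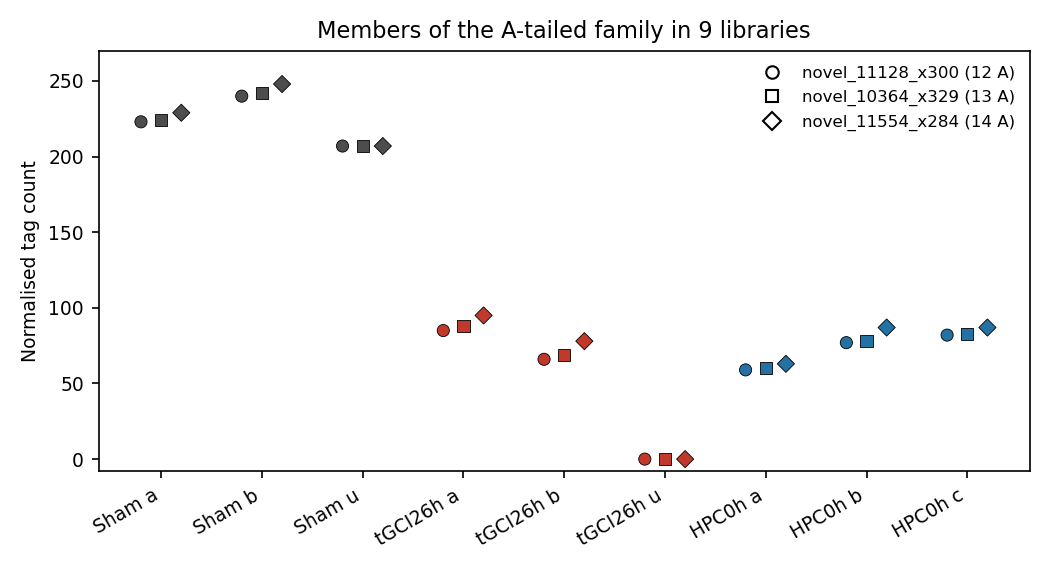
Normalised tag count (y axis) of the 3 members in each of the 9 libraries (x axis), with circles for 12 A, squares for 13 A and diamonds for 14 A, grey for Sham, red for tGCI26h and blue for HPC0h. Sham libraries lie between 207 and 248 and numbered treated libraries between 59 and 95, while tGCI26h u, blank for all 3 members, is drawn at 0.

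As group levels, novel_11128_x300 averaged 223 ± 16.5 tags (SD, n = 3) in Sham, against 50.3 ± 44.6 in tGCI26h and 72.7 ± 12.1 in HPC0h, likewise of 3 libraries. The Sham mean was 4.44-fold that of tGCI26h and 3.07-fold that of HPC0h. The first of these rests in part on the blank in tGCI26h u: over the numbered libraries the folds were 3.07 and 3.19. The smallest positive step between nested entries in tGCI26h u was 34 tags. Its blank is therefore coarse, and does not show that the family stood lower there than in tGCI26h a and b. For novel_10364_x329 the numbered folds were 2.97 and 3.16. For novel_11554_x284 the group means were 228 ± 20.5, 57.7 ± 50.7 and 79 ± 13.9.

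On the log2(value + 1) scale of the limma fit, novel_11128_x300 differed from Sham by -3.64 ± 1.64 (SE) in tGCI26h and by -1.62 ± 1.64 in HPC0h. Over the numbered libraries these differences were -1.61 ± 0.21 and -1.67 ± 0.19. Across the 3 members the numbered differences ran from -1.61 to -1.46 in tGCI26h and from -1.67 to -1.60 in HPC0h, beside medians of 0.21 in each comparison over the 2608 entries tested there. Over 9 libraries and 2824 tested entries, those medians were 0.14 and 0.53. Both comparisons use the same Sham libraries. The members were chosen on these differences, so each SE describes the spread in the fit and is no measure of support.

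All 3 members passed the filter of a mean of at least 1 tag, and all 3 were lower than Sham with no overlap in both treated groups, which is what they were chosen for. The same held for 2.3% of tested entries in tGCI26h and 0.814% in HPC0h. Over the numbered libraries alone these shares were 7.71% and 4.03%. Every treated library lay below every Sham library for 0.602% of entries, and for 1.8% over the numbered libraries.

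In Sham a and b, novel_11554_x284 ranked 182 of 2795 and 174 of 2558 among entries above 0, counted from the highest. In the numbered treated libraries its rank ran from 301 in tGCI26h a to 364 in HPC0h a. Its share of the library total was 0.0215% to 0.025% in Sham and 0.00636% to 0.00959% in the numbered treated libraries.

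The comparison of HPC0h with tGCI26h, which the choice of members did not use directly, asks whether the treated groups differ from each other. The numbered values overlapped, at 66 and 85 tags in tGCI26h against 59 to 82 in HPC0h for novel_11128_x300. Over 9 libraries its log2 difference was 2.02 ± 1.64 (SE; limma adjusted p = 0.722), and over the numbered libraries it was -0.06 ± 0.19 (adjusted p = 1). novel_10364_x329 gave 2.01 ± 1.64 and -0.09 ± 0.19, and novel_11554_x284 gave 2.01 ± 1.66 and -0.14 ± 0.19, with adjusted p = 0.722 for both over 9 libraries, and 1 and 0.995 over the numbered ones. The direction thus turned with tGCI26h u, and no difference between the treated groups was detected. Over 9 libraries limma called 0 of 2824 entries here (0%) at an adjusted p below 0.05, with 8 at an unadjusted p below 0.05. Over the numbered libraries it called 12 of 2608 (0.46%), none of them a member. No member was separated between these groups without overlap in either direction, as 5.1% of entries were higher and 1.31% lower in HPC0h, or 8.9% and 3.34% over the numbered libraries.

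Summed over the members, the family held 676, 730 and 621 tags in Sham, 268, 213 and 0 in tGCI26h and 182, 242 and 252 in HPC0h. On the log2(sum + 1) scale HPC0h stood 2.54 above tGCI26h, with an exact two-sided permutation p of 0.7. Over the numbered libraries it stood -0.0986 from tGCI26h (exact permutation p = 0.8).

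These sums may count the same tags repeatedly. A longer entry that contains a shorter one was never listed below it. Over 23774 such pairs in the table, the longer entry was equal or higher in all 140613 library values where either was above 0. The 3 members form 1 such nest, so they are not taken as 3 separate measurements, and the difference between neighbours is the value that the longer entry holds beyond the shorter one. Because values were rounded, each difference can be off by 1 tag.

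Nearly all of the family's value was already in the entry with 12 A. From 12 to 13 A the value rose by 1, 2 and 0 tags in the Sham libraries, by 3 and 3 in the numbered tGCI26h libraries, and by 1 in each HPC0h library. From 13 to 14 A it rose by 5, 6 and 0 tags in Sham, by 7 and 9 in the numbered tGCI26h libraries, and by 3, 9 and 4 in HPC0h. None of the summed steps in the numbered tGCI26h libraries, 10 and 12 tags, was below those of Sham a and b, 6 and 8 tags, and those of HPC0h, 4, 10 and 5 tags, lay on both sides of them. The entry with 12 A, in contrast, was lower in every treated library. In Sham u none of 4672 positive steps between nested entries of the table was below 10 tags, and the smallest in tGCI26h u was 34, so steps of the family's size were not detectable in either.

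**Figure D2:**
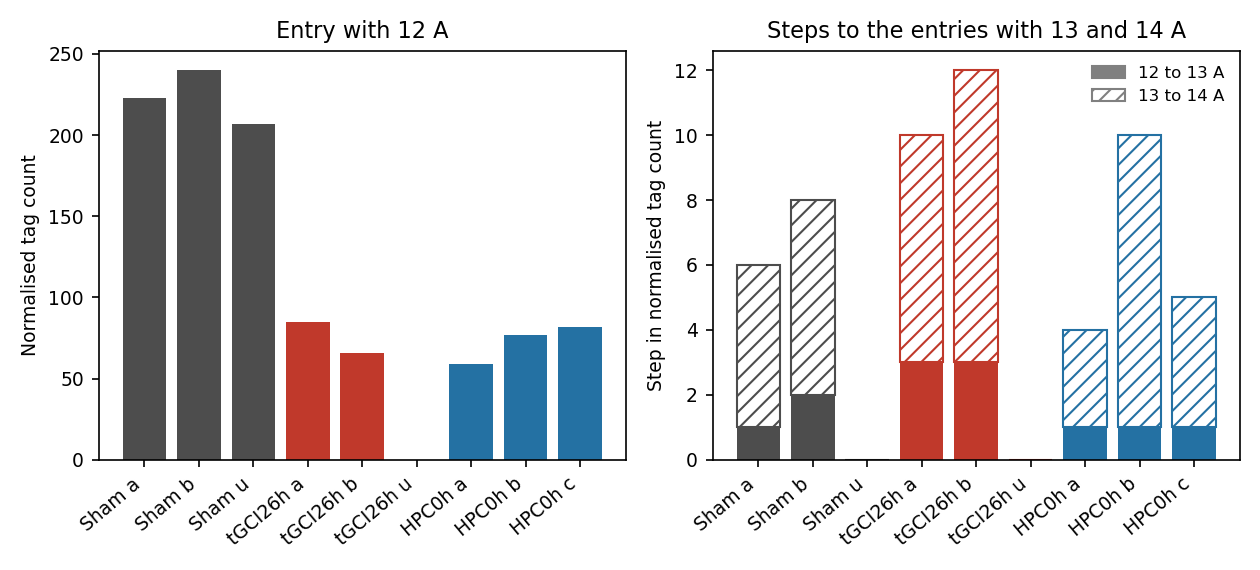
Left, normalised tag count of novel_11128_x300, the entry with 12 A, in each library. Right, the steps in normalised tag count from 12 to 13 A (filled) and from 13 to 14 A (hatched), where the 0 of Sham u and tGCI26h u stands for steps too small to be seen there, in grey for Sham, red for tGCI26h and blue for HPC0h. The left bars separate Sham (207 to 240) from the treated libraries (0 to 85), while the whole steps of the numbered libraries are 6 and 8 in Sham and 4 to 12 in the treated groups.

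Over the numbered libraries the whole step from 12 to 14 A averaged 7 ± 1.41 tags (SD, n = 2) in Sham, 11 ± 1.41 (n = 2) in tGCI26h and 6.33 ± 3.21 (n = 3) in HPC0h. Sham u and tGCI26h u are left out of these means, since a step of this size could not be seen in them. The steps come from the values that chose the members, so their differences from Sham are a description. For HPC0h against tGCI26h the exact two-sided permutation p was 0.4, where these libraries allow no p below 0.2. A step that did not differ detectably is not shown to be equal.

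As a share of the longest member, the step was 2.62% and 3.23% in Sham a and b, and in Sham u no step was detectable. It was 10.5% and 15.4% in the numbered tGCI26h libraries, and 6.35%, 11.5% and 5.75% in HPC0h. No numbered treated library overlapped Sham a and b. The divisor of this share is the value the members were chosen for, so the share is a description.

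The mean number of A over the members, weighted by the deposited values, was 13.010 ± 0.0015 in the numbered Sham libraries (SD, n = 2), 13.047 ± 0.013 in those of tGCI26h (n = 2) and 13.028 ± 0.012 in HPC0h (n = 3). The exact two-sided permutation p for HPC0h against tGCI26h was 0.4. This mean rises by construction when a similar step stands on a lower value of the entry with 12 A, so its differences from Sham are a description. It is no measured count of A per tag, since how the authors assigned a tag that matches several entries is not given in the sources used here.

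Long runs of A were rare in the table. At least 5 A closed 27 entries (0.466%), at least 12 A closed 14, and none of the 512 entries named rno_piR ended in 5 or more. Sets of entries that differ only in how many A they end in are called ladders here. The 24 entries outside the family with at least 5 A, all of which passed the filter, fall into 6 groups once contained entries are joined. The largest group holds 18 of them, so they stand for few separate measurements. Over the numbered libraries, 19 of the 24 lay lower in every tGCI26h and HPC0h library than in either Sham library. These 19 are the group of 18 and novel_14262_x213, so they come from only 2 of the 6 groups. The median log2 difference from Sham of the 24 was -0.59 in tGCI26h and -1.09 in HPC0h, against 0.21 over all tested entries in both. Some of these entries were near the floor. In 1 ladder, each entry from novel_14751_x203 (10 A) to novel_10312_x331 (15 A) held 2 tags in Sham a and b. Each held 1 tag in every numbered treated library. A fall from 2 tags to 1 has the size of the tGCI26h median, and the values are rounded. Over 9 libraries, 7 of the 24 lay below every Sham library, and the medians were -0.39 and -0.26.

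Those 19 entries share an 11-base core unlike that of the family. This core, called the second core, was picked out after the values had been seen and is held by 21 entries in all. They are shown here by the shortest and longest entry of each of their ladders and by the 3 entries that belong to no ladder, with the core in capitals.
novel_5687_x761: aAUUUCGGUUGGgaaaaa
novel_4017_x1232: aAUUUCGGUUGGgaaaaaaaaaaa
novel_14751_x203: AUUUCGGUUGGgaaaaaaaaaa
novel_14352_x211: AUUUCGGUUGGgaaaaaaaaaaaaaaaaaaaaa
novel_14262_x213: aAUUUCGGUUGGaaaaaaaaaaaaaaaa
novel_13804_x223: aaaaaAUUUCGGUUGGga
novel_13915_x221: uaaaaaAUUUCGGUUGGg
All 21 lay lower in each numbered treated library than in Sham a and b. The values had been seen when the core was picked, so for all 21 this is a description. The 2 entries outside the 19, novel_13804_x223 and novel_13915_x221, end in fewer than 5 A. They share nearly all of their bases with each other, so they lend no separate support. As 18 of the 21 form 1 nest, the 21 entries are few separate measurements. Together with the family, itself chosen for lower values, the 21 entries make up 24 of the 47 entries with that pattern among the 2608 tested. Over 9 libraries they make up 9, and the family 3, of 17.

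novel_4017_x1232, with 11 A, held 102, 117 and 283 tags in the Sham libraries, 66, 44 and 0 in tGCI26h, and 32, 45 and 59 in HPC0h. novel_13915_x221, which has no A at its end, held 56, 51 and 154 tags in Sham, 22, 18 and 0 in tGCI26h and 14, 16 and 23 in HPC0h. Both of these entries were blank in tGCI26h u, as the family was. Only 2 of the 21 entries with this core end in fewer than 5 A, and those 2 overlap in sequence. Whether the lower values depend on the run of A was not tested.

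The ladders are described over the numbers of A listed for each. These spans are unlike, so the shares below are not directly comparable between ladders. In the family, 96.8% to 97.4% of the longest member's value in Sham a and b was already in the entry with 12 A. From 5 to 11 A, the ladder of novel_4017_x1232 held 73.5% to 74.5% of its longest value in its shortest entry in Sham a and b. For novel_14352_x211, with 21 A, the entry with 10 A held 3.28% to 3.51%, and the value climbed from 2 tags in both to 57 and 61. From 12 to 14 A, the only span listed for the family, this ladder stayed at 2 tags in Sham a and b. In the treated groups novel_14352_x211 held 50, 39 and 158 tags in tGCI26h and 10, 26 and 11 in HPC0h, and it was blank in Sham u.

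**Figure D3:**
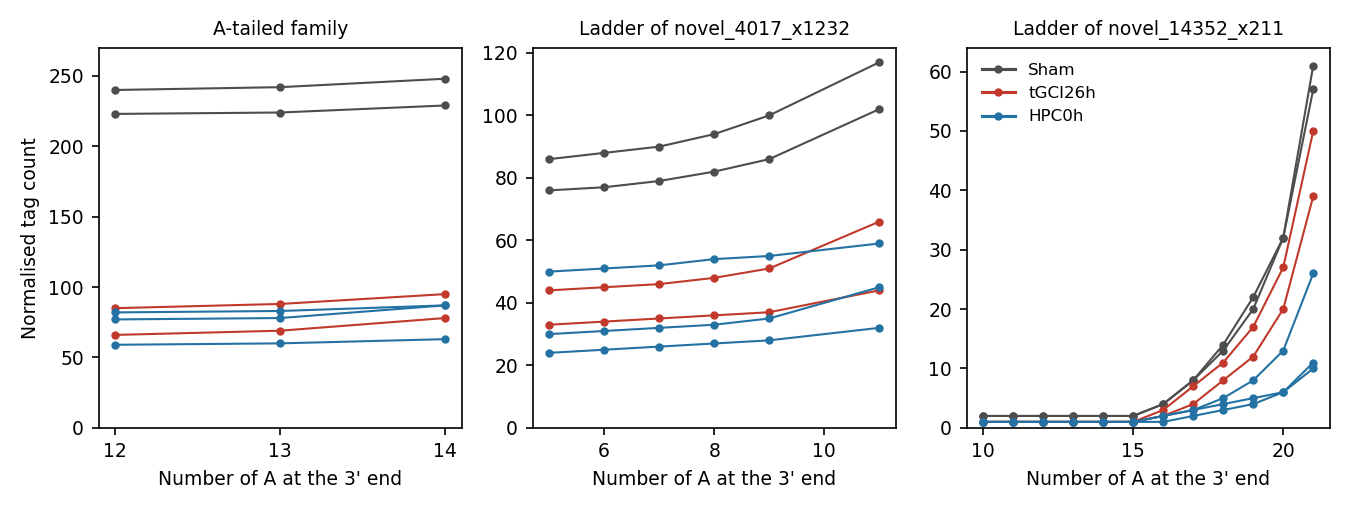
Normalised tag count (y axis) against the number of A at the 3′ end (x axis) for the family and 2 other ladders, each line 1 numbered library, grey for Sham, red for tGCI26h and blue for HPC0h. The family's lines are nearly flat and split into Sham (223 to 248) and treated (59 to 95), the ladder of novel_4017_x1232 rises slowly, and that of novel_14352_x211 rises steeply after 15 A. Each panel covers only the numbers of A listed for that ladder, so the spans differ.

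**Figure D4:**
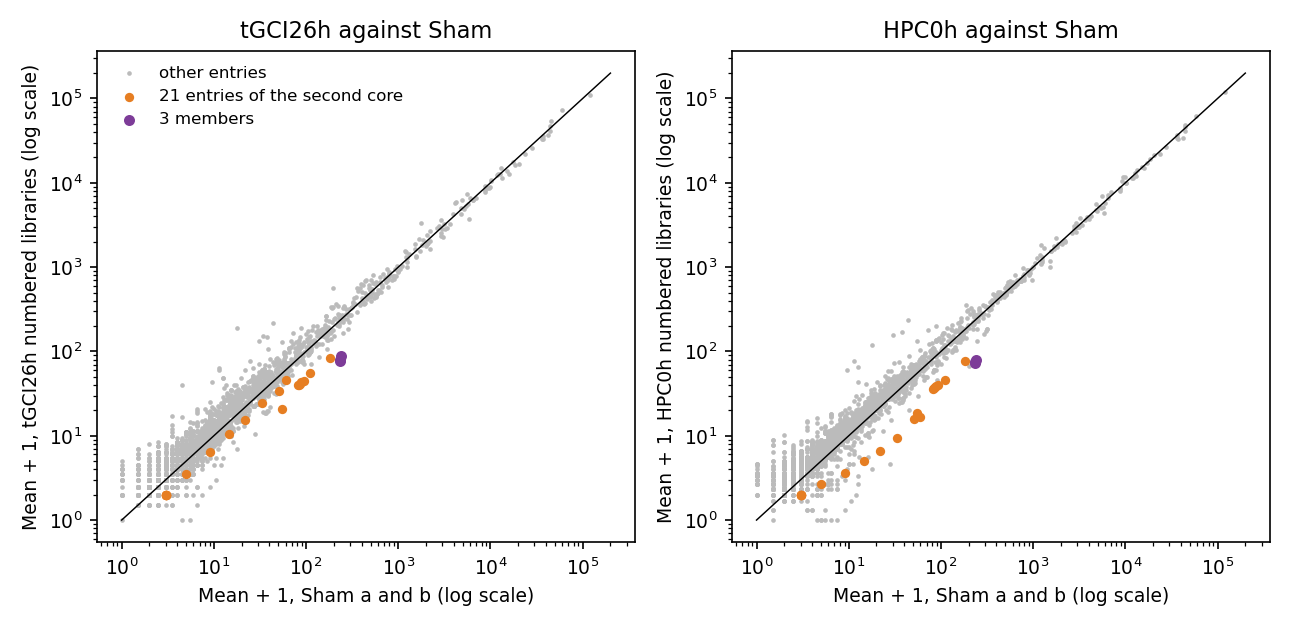
Mean tag count + 1 in Sham a and b (x axis) against that in the numbered tGCI26h libraries (left) and HPC0h libraries (right), on log axes, for 2608 entries with a mean of at least 1, with the line of equal values. The 3 members (purple) and the 21 entries of the second core (orange) all lie below the line.

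Among the 1334 entries outside the family with a mean of at least 10 tags, the 5 whose log2 values followed the family sum most closely over the 9 libraries had Pearson r from 0.976 to 0.981. These were novel_5575_x781, novel_14708_x204 (with the sequence of miR-542-3p in RefSeq), novel_435_x31716 and novel_196_x97317 (parts of miR-219a-2-3p) and novel_4257_x1137 (part of miR-872-5p). All 5 were blank in tGCI26h u, as the family was, and over the 7 numbered libraries their r fell to between 0.458 and 0.912. novel_14708_x204 held 245, 250 and 212 tags in Sham, 163 and 168 in the numbered tGCI26h libraries, and 176, 181 and 201 in HPC0h, a smaller difference between groups than in the family. Ranked over the numbered libraries instead, a ranking made after the data had been seen, the 8 closest entries all held the second core, led by novel_13915_x221 (r = 0.980) and novel_13804_x223 (r = 0.966). They include the 6 nested entries of the ladder of novel_4017_x1232. Family and core were both picked with their lower treated values known, so a high r was largely given in advance. It shows no link between them.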

How the data were processed

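The 9 libraries were made from Trizol-extracted total RNA by ligation of both adaptors, cDNA synthesis, PCR and selection near piRNA length, per the labels' protocols. Novoalign 3.02.12 and cutadapt 1.9.3 are listed, without roles, per the submitters' processing notes. The genome build, the rule that predicted further entries and the handling of reads that match several entries are not given in the sources used here. The deposited values are a score: tag counts normalised by the authors to nearly equal totals and rounded, per the file headers and column totals. Of the lines, 11 are not analysed here. No count model was used, since these are not raw counts.

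Entries whose mean reached 1 were tested with limma 3.58.1 under R 4.3.3, using log2(value + 1), a trend of the spread on intensity and all 3 groups together, and p-values were adjusted by the Benjamini-Hochberg method (threshold 0.05); the fit was tested on simulated data. Means over libraries were compared by exact permutation in Python 3.11.15, for HPC0h against tGCI26h only; tests of the mean number of A against Sham, which had been planned, were dropped because that mean is made from the values that chose the members. Steps between members were summarised over the numbered libraries, a choice made after the data had been seen. Nested pairs are entries of at least 18 nt wholly contained in another. Alternatives covered the pseudocount (0.5 and 5), the filter (none or a mean of at least 10), median-of-ratios and quantile scaling, no trend, blanks as missing values, numbered libraries only and each library left out.

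The members and lists were chosen with earlier results of these data known. Every member is named, as are the 5 entries of most similar pattern with a mean of at least 10, by Pearson r over 9 libraries. Cell type markers were matched by the first 18 bases of the RefSeq mature sequence and summed; miR-142-3p matched no entry, and miR-124-3p, miR-9-5p and miR-486-5p were not searched, since the reference held no sequence under these names.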

Additional observations from a re-analysis of the deposited data

How the results depend on the processing

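No paired analysis was possible because the columns carry no replicate number. limma called 0 entries at an adjusted p below 0.05 in each of the 3 comparisons over 9 libraries (39, 21 and 8 at an unadjusted p below 0.05 for tGCI26h against Sham, HPC0h against Sham and HPC0h against tGCI26h), and 0 with any single library left out. With blanks as missing values, which drops empty cells from the fit, it called 3, 3 and 1, and over the numbered libraries 22, 36 and 12. HPC0h against tGCI26h turned sign over the numbered libraries and with blanks as missing values for novel_11128_x300 (-0.0571), novel_10364_x329 (-0.0936) and novel_11554_x284 (-0.14), and the summed family did so over the numbered libraries (-0.0986). With single libraries left out these ranged from -0.0571 to 3.16, -0.0936 to 3.14, -0.14 to 3.15 and -0.0986 to 3.94, the lowest without tGCI26h u. The summed family in HPC0h against Sham moved from -1.59 to -1.29 with median-of-ratios scaling, the cause of which was not tested. Against Sham, no alternative turned the sign of a member or of the sum, and in tGCI26h the sum ranged from -5.53 to -1.49 with single libraries left out, the highest without tGCI26h u. The step from 12 to 14 A in HPC0h against Sham turned from -0.667 over the numbered libraries to 1.67 over 9 libraries, where steps not detectable in Sham u enter as 0, and ranged from -2.5 to 0.5 with single numbered libraries left out. In tGCI26h against Sham it was 4 over the numbered libraries, 3 to 5 with single ones left out and 2.67 over 9, and in HPC0h against tGCI26h it was -4.67, -6.5 to -3.5 and -1. Weighting by the steps in place of the deposited values, which assumes that each tag of a shorter entry is counted again in the longer one, moved the difference in the mean number of A from Sham, over all libraries that hold the family, from 0.0402 to 0.189 in tGCI26h and from 0.0211 to 0.110 in HPC0h. Quantile scaling moved the median of all entries in tGCI26h against Sham from 0.14 to -0.04. Depth is unknown, and the coarse values of Sham u and tGCI26h u limit the steps and the levels, including the blank of the family in tGCI26h u.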

Other observations

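Of the other ladders that reach at least 5 A, 3 lacked the second core. novel_13545_x228, with 5 A, held 221, 409 and 137 tags in the Sham libraries, 525, 152 and 71 in those of tGCI26h and 182, 112 and 256 in those of HPC0h, so that all groups overlapped. novel_4291_x1125, with 6 A, held 5 tags in Sham a and b, 7 and 5 in tGCI26h a and b and 6, 7 and 8 in HPC0h, and was blank in Sham u and tGCI26h u. novel_5922_x715, with 5 A, held 143 tags in Sham u and at most 2 in any other library. In none of these 3 did every treated library lie below every Sham library, and novel_4291_x1125 stood higher in each HPC0h library than in any Sham library.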
